A study of Mus musculus with 28 samples.

Results

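The genes of the respiratory chain complexes were followed across a study of mouse bone marrow-derived macrophages, in which the Keap1 and Nrf2 pathway was activated or removed. Genes were taken by symbol, as those starting with Ndufa, Ndufb, Ndufc, Ndufs or Ndufv (complex I), Sdha to Sdhd (complex II), Uqcr (complex III), Cox4 to Cox8 (complex IV) and Atp5 (complex V). This gave 94 of the 18193 genes measured, each read from its brightest probe set, judged by the mean of the 28 arrays. Of these, 82 encode subunits (36 of complex I, 4 of complex II, 8 of complex III, 17 of complex IV and 17 of complex V). The other 12 are assembly factors that share the prefix, 8 named Ndufaf and 4 named Sdhaf. Complexes are counted by prefix, so Ndufa4, later found in complex IV, counts under complex I throughout. No filter on low values was applied, so all 94 entered every test.

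All cells came from C57BL/6 J mice aged 12 weeks, and each of the 7 groups held 4 arrays that the series describes as biological replicates. In the compound experiment, macrophages without Nrf2 (Nrf2-/-, here KO) received RA839 or the solvent DMSO, and macrophages with intact Nrf2 (Nrf2+/+, here WT) received the same, at 0.2% DMSO in all 4 groups and for 4 h. In the siRNA experiment, WT macrophages received siKeap1-1 or siKeap1-2, which both target Keap1, or a control siRNA (siControl). RA839 is a small molecule that binds Keap1, the protein that marks the transcription factor Nrf2 for degradation. The sources used here do not give the dose of RA839, the design of the KO allele, or the sequences and timing of the siRNAs, and the design text once writes RA838.

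The complexes sit in the inner mitochondrial membrane. Complexes I and II take electrons from NADH and succinate, complex III passes them to cytochrome c, and complex IV gives them to oxygen, while complex V, the ATP synthase, uses the resulting proton gradient to make ATP. In macrophages the chain also yields reactive oxygen species and is remodelled during activation, and the subunits covered here are those encoded in the nucleus. Several complex IV subunits exist as tissue isoforms, such as the muscle forms Cox6a2 and Cox7a1 and the testis form Cox6b2.

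The targeted genes matched the labels on every array. Nfe2l2, which encodes Nrf2, read 3.18 to 3.52 (log2 signal) on the 8 KO arrays and 11.85 to 12.96 on the 8 WT compound arrays. Keap1 read 8.93 to 9.13 with siKeap1-1 and 9.15 to 9.47 with siKeap1-2, against 10.94 to 11.16 with siControl. The mean of the 8 macrophage markers lay between 11.91 and 12.95 on all arrays. One array stood apart. On WT_RA839 array 2 the Gapdh control signal was 3.74 higher at the 3′ end than at the 5′ end, against 0.73 to 1.00 on the other 27 arrays, and the Actb control gave 3.10, against 1.28 to 2.04. On that array 70 of the 94 members lay below their group mean, with a median deviation of −0.13, and counts, medians and named values that involve WT_RA839 are therefore given both ways where they turn on it. In the siRNA experiment the arrays numbered 4 were the low ones, with 82 of 94 members below the group mean with siKeap1-1, 81 with siKeap1-2 and 80 with siControl. In bulk RNA, fewer cells of a type and less RNA per cell cannot be told apart.

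**Figure D1:**
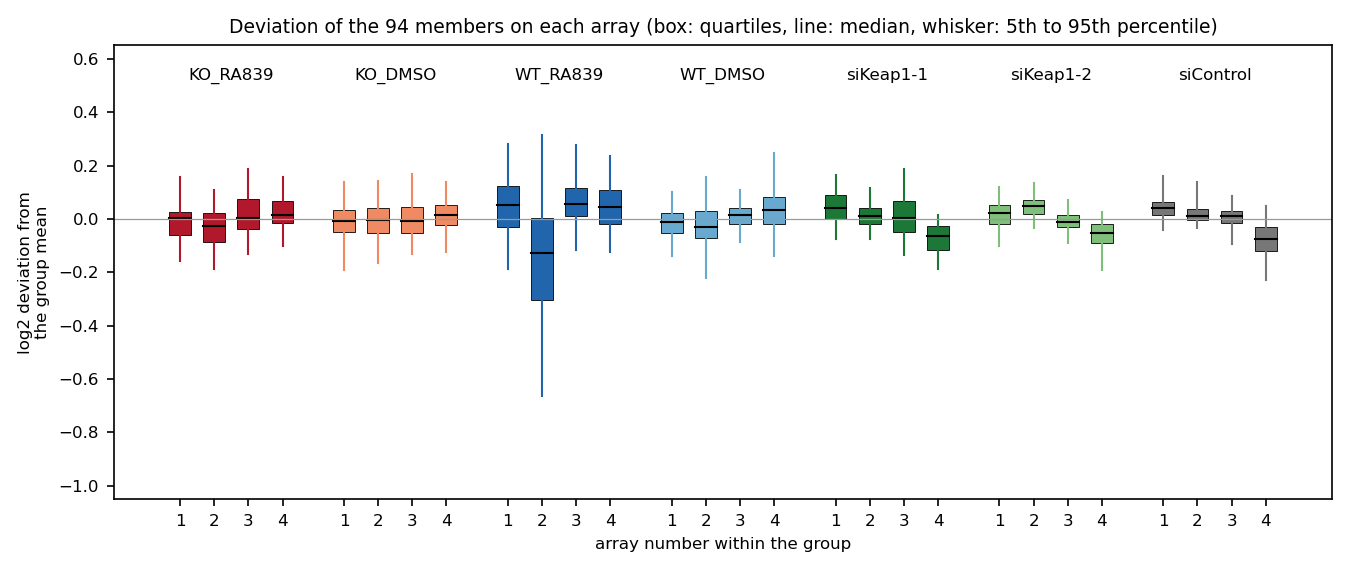
Log2 deviation of the 94 members from their group mean (y axis) on each of the 28 arrays (x axis, array number within the group). Boxes give quartiles, lines the median and whiskers the 5th to 95th percentile. WT_RA839 array 2 has the lowest median (−0.13), and the arrays numbered 4 of the siRNA groups lie below 0.

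Most members were among the bright genes of these arrays. Their mean over all arrays was at or above 12 for 61 members, between 9 and 12 for 19 and under 9 for 14, and 58 members exceeded the 90th percentile of all genes (12.20). Among the 14 dim ones were the isoforms Cox4i2, Cox6b2, Cox7a1, Cox7b2, Cox8b and Cox8c. Ndufb4 (3.16), Ndufb1 (7.49) and Cox7c (7.91) were dim as well, and all of these stay in the counts and medians of their complexes. The median over the 36 complex I subunits was 12.43 ± 0.03 in KO_RA839 (SD, n = 4 arrays), 12.44 ± 0.02 in KO_DMSO, 12.52 ± 0.05 in WT_RA839 and 12.57 ± 0.05 in WT_DMSO. Every KO array lay below every WT array in this median. For the 17 complex V subunits the same medians, in the same order of groups, were 13.53 ± 0.03, 13.55 ± 0.03, 13.42 ± 0.11 and 13.52 ± 0.07, and the genotypes overlapped. In the siRNA experiment, which may have been normalized apart, the complex I median was 12.94 ± 0.06 with siKeap1-1 and 12.94 ± 0.08 with siKeap1-2, against 12.81 ± 0.06 with siControl. The arrays of both Keap1 siRNAs, 12.83 to 13.02, overlapped with the siControl arrays at 12.73 to 12.85 by 1 array of siKeap1-2. Within each array number, both Keap1 siRNA arrays lay above the siControl array. Replicates were close. The median SD of a member within a group was 0.06 to 0.07 in 6 groups and 0.15 in WT_RA839.

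KO macrophages in DMSO had lower mRNA of a subset of complex I subunits than WT macrophages, together with lower mRNA of the isoforms Cox6b2, Cox7a1 and Cox4i2. By limma, 14 of the 94 members were lower at an adjusted p under 0.05 and 3 were higher, where 13.8% of all genes were lower and 11.2% higher. The 14 lower members were all subunits, 11 of 36 in complex I (30.6%), 3 of 17 in complex IV and 0 in complexes II, III and V, where at an unadjusted p under 0.05 there were 1, 0 and 2. Of all 18193 genes, 6774 had an unadjusted p under 0.05 in either direction. The median of the members was −0.08 (log2) beside −0.02 for all genes, and that of the complex I subunits was −0.12. Most changes were small, from −0.18 to −0.45 apart from Ndufa4 and Cox6b2.

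Ndufa4 had the largest fall under the complex I prefix. It encodes a small subunit first placed in complex I and later found in complex IV. Its signal was 11.05, 11.17, 11.46 and 11.30 on KO_DMSO arrays 1 to 4, against 12.28, 12.33, 11.89 and 11.86 on the WT_DMSO arrays. All KO arrays lay below all WT arrays. The difference was −0.84 ± 0.18 (log2, SE, adjusted p = 0.00292), so that the linear signal fell by 44.3%, and 1 probe set measures the gene. Ndufa4l2, its hypoxia-induced paralog, was at −0.08 ± 0.17 (adjusted p = 0.779) on a dim probe set.

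The other complex I falls covered several modules of the enzyme. In the NADH-oxidizing module, Ndufs1, the large iron-sulfur subunit, read 10.88, 10.90, 11.06 and 10.97 in KO_DMSO, against 11.27, 11.26, 11.36 and 11.37 in WT_DMSO. The groups did not overlap, and the difference was −0.36 ± 0.08 (adjusted p = 0.00516). Ndufa2, an accessory subunit of the same module, read 13.18, 13.12, 13.08 and 13.04 in KO_DMSO, against 13.43, 13.43, 13.45 and 13.48 in WT_DMSO. Its arrays were closer together than those of Ndufs1, and the difference was −0.35 ± 0.06 (adjusted p = 0.000927). Ndufv1, which binds NADH, was at −0.36 ± 0.13 (adjusted p = 0.0499), and its arrays overlapped.

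In the quinone-binding module, Ndufa9 was at −0.23 ± 0.07 (adjusted p = 0.0298), Ndufa5 at −0.18 ± 0.06 (adjusted p = 0.0461) and Ndufs7, which carries the last iron-sulfur cluster before ubiquinone, at −0.20 ± 0.06 (adjusted p = 0.0363). In the membrane arm, Ndufb2 (−0.29 ± 0.07, adjusted p = 0.00862), Ndufb9 (−0.28 ± 0.06, adjusted p = 0.00503), Ndufc1 (−0.26 ± 0.07, adjusted p = 0.0125) and Ndufa13 (−0.22 ± 0.06, adjusted p = 0.0159) were lower. All 4 KO arrays lay below all 4 WT arrays for each of these 7 genes. They had been picked by a test on the same arrays, so the lack of overlap is no separate evidence. Ndufb8, another membrane arm subunit, was at −0.05 ± 0.08 (adjusted p = 0.687), so not all membrane arm subunits passed the threshold. All 11 falls under the complex I prefixes, Ndufa4 included, are named here, 7 more than the 4 largest that the naming rule takes. Of these calls, those of Ndufv1, Ndufb9, Ndufc1 and Ndufs7 depended on the probe set. Their dimmer plain probe sets gave −0.07, −0.10, −0.08 and −0.08 (adjusted p = 0.464 to 0.659 over all probe sets). Another plain one of Ndufb9, at a dim level, gave −0.24 (adjusted p = 0.312). For Ndufb2 a dim plain probe set gave 0.26 (adjusted p = 0.34), while a brighter _x_at one gave −0.35 and passed (adjusted p = 0.00601). When each of the 16 arrays was left out in turn, Ndufa5 lost its call in 14 cases, Ndufv1 in 12, Ndufs7 in 7 and Ndufa9 in 6. The plain probe set of Ndufa5 gave −0.20 and did not pass (adjusted p = 0.11 over all probe sets). Some unused complex I probe sets passed higher in that fit. They were a dimmer one of Ndufs8 (0.24, adjusted p = 0.0296) and a dim one of Ndufab1 (0.56, adjusted p = 0.00456). The used probe sets of these genes were at 0.01 and −0.18 and did not pass.

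The largest change of any member was in complex IV. Cox6b2, the testis form of a subunit on the intermembrane space side, read 7.51, 7.66, 6.64 and 6.70 on KO_DMSO arrays 1 to 4, against 9.21, 8.78, 9.06 and 9.13 on the WT_DMSO arrays. The KO arrays were far below WT and split among themselves, with arrays 1 and 2 above 3 and 4. Some cell type markers, picked after their values were seen, split the same way on these arrays. They were Fcgr1 at 12.27 and 12.42 against 11.37 and 11.13, Ccr7 at 8.45 and 8.59 against 6.74 and 6.38, and S100a9 at 7.22 and 8.46 against 5.32 and 5.39. Others of the same lists went the other way, such as Cd14 at 12.80 and 12.77 against 12.89 and 12.86. So did Itgax at 13.28 and 13.20 against 13.54 and 13.57, and Mpo at 4.04 and 4.15 against 4.80 and 4.69. The marker lists thus do not split as a whole, and the part of any marker in the Cox6b2 values was not tested. The Cox6b2 difference was −1.92 ± 0.24, a 3.78-fold lower signal in KO (adjusted p = 5.03e-05). Its ubiquitous counterpart Cox6b1 was at −0.16 ± 0.10 (adjusted p = 0.261). Cox7a1, the heart and muscle form of another small subunit, read 7.49, 7.49, 7.29 and 7.18 in KO_DMSO, against 7.90, 7.67, 7.87 and 7.80 in WT_DMSO, a difference of −0.45 ± 0.12 (adjusted p = 0.0138). Its counterpart Cox7a2 was at −0.10 ± 0.07 (adjusted p = 0.321). Cox4i2, a lung and hypoxia form, was at −0.26 ± 0.09 on a dim probe set (adjusted p = 0.0422), a call lost under 6 of 10 other settings, and Cox4i1 was at −0.09 ± 0.09 (adjusted p = 0.461). The muscle form Cox6a2 read 8.55 to 9.56 in KO_DMSO and 8.70 to 9.15 in WT_DMSO and did not pass (0.13, adjusted p = 0.741). Nor did Cox6a1 (0.03), Cox8a (−0.08), the dim Cox8b (0.10) and Cox8c (−0.04), or Cox7a2l, which takes part in supercomplex assembly (0.09, adjusted p = 0.511 to 0.83).

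The same 15 subunits were followed in every comparison, namely Ndufs1, Ndufv1, Ndufa9, Ndufb8, Sdha, Sdhb, Uqcrc1, Uqcrc2, Uqcrfs1, Cox4i1, Cox5a, Cox5b, Atp5a1, Atp5b and Atp5c1. Those of complexes II to V did not pass in DMSO. Sdha, the flavoprotein of complex II, was at −0.02 ± 0.07 and the iron-sulfur subunit Sdhb at −0.08 ± 0.08. Another Sdha probe set did pass (−0.33, adjusted p = 0.0145 over all probe sets), so the probe sets of that gene disagree. In complex III, Uqcrc1, Uqcrc2 and the Rieske protein Uqcrfs1 were at 0.20, −0.10 and −0.01 (adjusted p = 0.227 to 0.935). Cox5a and Cox5b were at −0.11 and −0.09, and the ATP synthase genes Atp5a1, Atp5b and Atp5c1 at −0.16, −0.18 and 0.03 (adjusted p = 0.0867 to 0.866). The 3 members higher in KO were Ndufaf7, a methyltransferase needed to assemble complex I (0.45 ± 0.13, adjusted p = 0.0187), Sdhaf3, an assembly factor for the iron-sulfur subunit of complex II (0.28 ± 0.09, adjusted p = 0.0357), and Cox7b2, a testis form near the bottom of the scale (0.30 ± 0.09, adjusted p = 0.027).

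**Figure D2:**
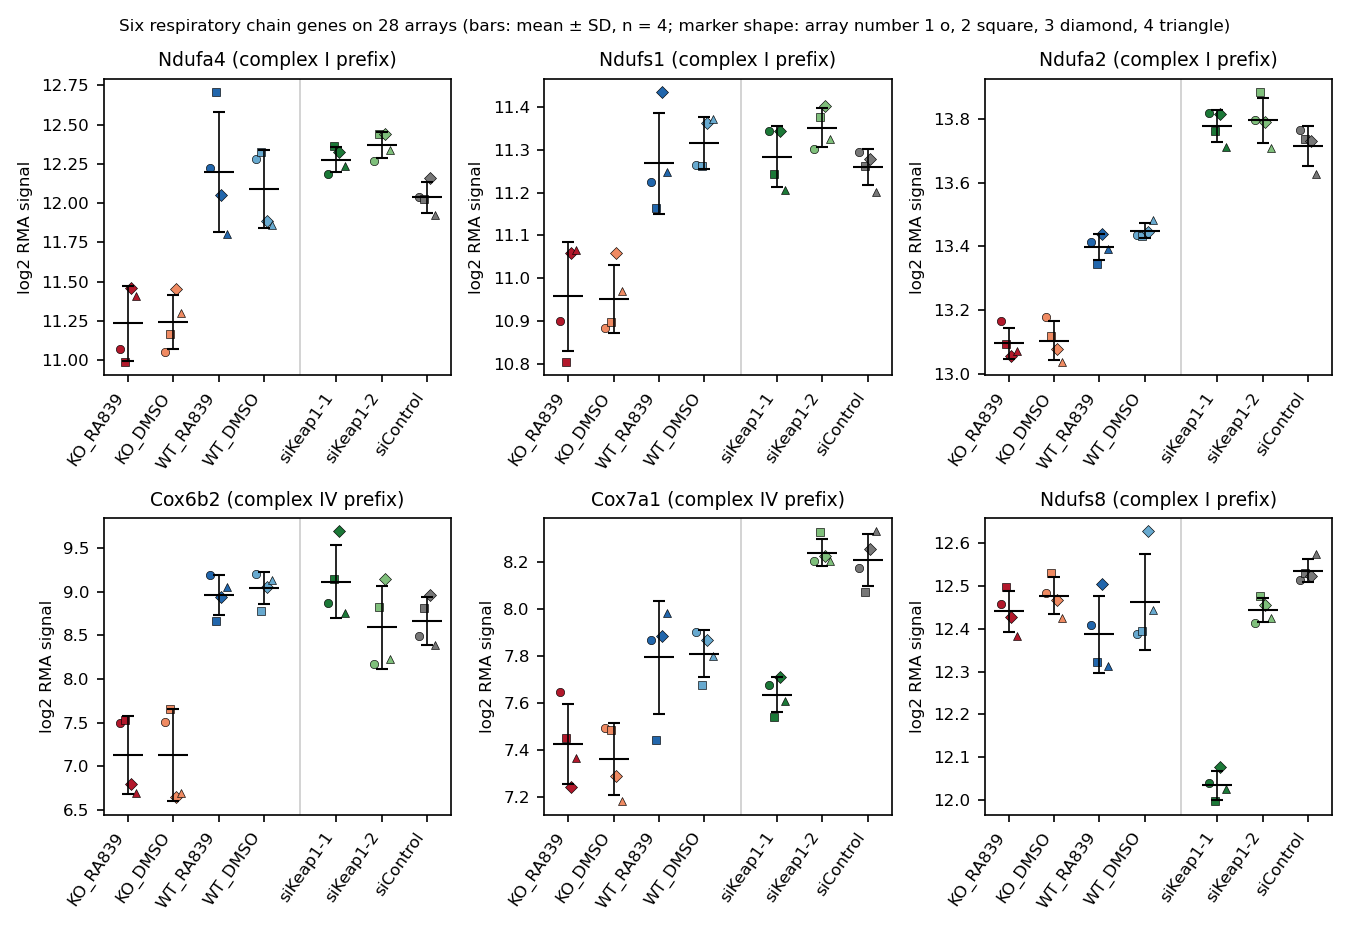
Log2 RMA signal (y axis) of Ndufa4, Ndufs1, Ndufa2, Cox6b2, Cox7a1 and Ndufs8 on each array of the 7 groups (x axis). Points are arrays with the shape giving the array number, and bars are the mean ± SD (n = 4). The KO groups lie below the WT groups for Ndufa4, Ndufs1, Ndufa2 and Cox6b2, and the siKeap1-1 group alone is low for Ndufs8.

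The same subunits were compared between the genotypes under RA839. The group means come from other arrays than in DMSO, but both tests share 1 estimate of spread and same-numbered KO arrays deviated together (correlations of 0.66 to 0.70), so the second comparison is not independent of the first. By limma 14 members were lower and 6 higher, where 15.8% of all genes were lower and 14.6% higher. Of the 14 members lower in DMSO, 10 were lower again (71.4% of each list of 14) and all 14 were below 0. Among all 2518 genes lower in DMSO the share lower again was 75.8%, and 2491 were below 0. Ndufa4 read 11.07, 10.99, 11.46 and 11.41 in KO_RA839, against 12.22, 12.71, 12.05 and 11.80 in WT_RA839, with no overlap (−0.96 ± 0.18, adjusted p = 0.000905). Cox6b2 read 7.49, 7.53, 6.80 and 6.69 in KO_RA839, against 9.20, 8.67, 8.94 and 9.05 in WT_RA839, with the same split of the KO arrays as in DMSO (−1.84 ± 0.24, adjusted p = 4.91e-05). Without WT_RA839 array 2 these differences were −0.79 ± 0.16 for Ndufa4 and −1.94 ± 0.26 for Cox6b2 (adjusted p = 0.00194 and 0.000104).

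Ndufv1 (−0.50 ± 0.13), Ndufb9 (−0.35 ± 0.06), Ndufs1 (−0.31 ± 0.08) and Ndufa2 (−0.30 ± 0.06) followed among the complex I subunits (adjusted p = 0.000692 to 0.0111), and Cox7a1 was at −0.37 ± 0.12 (adjusted p = 0.0316). Without WT_RA839 array 2 the same 5 genes were at −0.41, −0.34, −0.35, −0.32 and −0.48 and still passed (adjusted p = 0.000827 to 0.0222). The plain probe sets of Ndufv1 and Ndufb9 gave −0.04 and −0.01 here and did not pass (adjusted p = 0.794 and 0.926 over all probe sets). Of the 15 subunits followed throughout, Ndufs1 and Ndufv1 passed, and the other 13 lay between −0.14 (Atp5b) and 0.20 (Atp5c1). The probe sets of Cox5a disagree here. The used one was at −0.02, while its dimmer ones passed lower by limma on every probe set, at −0.34 (adjusted p = 0.0164) and −0.24 (adjusted p = 0.0426). A dim probe set of Atp5c1 passed higher in that fit (0.83, adjusted p = 0.00562), as it did in DMSO (0.70, adjusted p = 0.0186). The used probe set of Ndufs8 was at 0.05 and a dimmer one at 0.03. Its other dimmer ones passed higher there, at 0.30 to 0.40 (adjusted p = 0.00253 to 0.041). These fits kept WT_RA839 array 2. Cox6c, a complex IV subunit (−0.35 ± 0.10, adjusted p = 0.0145), and Uqcrb, the ubiquinone-binding subunit of complex III (−0.28 ± 0.09, adjusted p = 0.024), passed here, while the same probe sets did not pass in DMSO. Their other probe sets did pass in DMSO, at −0.20 for Cox6c and −0.36 for Uqcrb (adjusted p = 0.0486 and 0.00579 over all probe sets), and no member passed a test of the difference between DMSO and RA839. Both used probe sets read highest of their group on the WT_RA839 array that stood apart, and without it they were at −0.23 and −0.20 (adjusted p = 0.0113 and 0.0458). Atp5g1, one of the genes for the ring subunit of ATP synthase, was higher (0.55 ± 0.15, adjusted p = 0.0111), as were Ndufaf7 (0.79 ± 0.13, adjusted p = 0.000303), Sdhaf3 (0.39 ± 0.09, adjusted p = 0.00476), Cox7b2 (0.52 ± 0.09, adjusted p = 0.000684) and the complex I assembly factors Ndufaf5 (0.38 ± 0.13, adjusted p = 0.0411) and Ndufaf1 (0.22 ± 0.08, adjusted p = 0.0493). Ndufaf5 and Ndufaf1 did not pass without that array (adjusted p = 0.11 and 0.0807), and Atp5g1 was then at 0.38 (adjusted p = 0.0213). Ndufaf1 also did not pass with a block for the replicate number.

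Leaving out WT_RA839 array 2 changed the counts of both comparisons, since all 4 compound groups share 1 estimate of spread. In DMSO 23 members were then lower and 3 higher, with the 17 calls above among them and 9 added. The lower subunits were 14 of 36 in complex I, 1 of 4 in complex II, 2 of 8 in complex III, 4 of 17 in complex IV and 1 of 17 in complex V, beside 1 of 12 assembly factors. Of all genes, 16.5% were then lower and 14.7% higher. Chosen after their values were seen, the added ones included Uqcr10 (−0.19, adjusted p = 0.0112) and Uqcrq (−0.20, adjusted p = 0.0232) of complex III and Cox6b1 (−0.16, adjusted p = 0.0267). Under RA839 17 were lower and 4 higher without that array, where 14.7% of all genes were lower and 15% higher. The median of the members was then −0.05, against 0.01 with it, and that of all genes was 0.00 without it.

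The promoters of these genes differ in the motifs they hold. They are shown for the genes with the 2 largest falls in KO, Ndufa4 and Cox6b2, for Ndufa9 and Ndufs7, which also fell, and for Uqcr11, which fell with siKeap1-1. Each runs from 250 bases before to 50 after the start (RefSeq, GRCm38.p6), 5′ to 3′ on the gene's strand, with matches in capitals to CGCATGCG (the core of the NRF1 site), CCGGAAGT (ETS factors such as GABP), AAGATGGC (YY1) or TGACNNNGC (the antioxidant response element bound by Nrf2, in a stricter form). Both strands were searched. NRF1 here is nuclear respiratory factor 1, a regulator of respiratory genes distinct from Nrf2.
Ndufa4 (chr6:11907401-11907700, minus strand): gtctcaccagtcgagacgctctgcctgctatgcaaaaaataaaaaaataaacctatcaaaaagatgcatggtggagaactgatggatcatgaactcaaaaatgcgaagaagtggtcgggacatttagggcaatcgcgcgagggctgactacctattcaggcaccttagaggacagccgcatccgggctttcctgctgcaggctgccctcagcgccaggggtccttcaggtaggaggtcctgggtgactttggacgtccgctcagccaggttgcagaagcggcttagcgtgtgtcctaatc
Cox6b2 (chr7:4753045-4753344, minus strand): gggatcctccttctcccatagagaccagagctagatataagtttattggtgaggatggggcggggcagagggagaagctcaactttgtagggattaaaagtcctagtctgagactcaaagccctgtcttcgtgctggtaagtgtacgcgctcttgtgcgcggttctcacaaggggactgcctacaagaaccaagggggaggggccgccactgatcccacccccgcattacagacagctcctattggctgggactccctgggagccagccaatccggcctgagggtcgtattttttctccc
Ndufa9 (chr6:126849095-126849394, minus strand): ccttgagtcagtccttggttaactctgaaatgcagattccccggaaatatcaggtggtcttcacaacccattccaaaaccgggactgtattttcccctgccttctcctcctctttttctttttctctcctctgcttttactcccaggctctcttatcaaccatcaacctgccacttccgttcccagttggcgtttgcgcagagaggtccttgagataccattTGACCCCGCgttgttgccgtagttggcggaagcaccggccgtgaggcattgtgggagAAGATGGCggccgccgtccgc
Ndufs7 (chr10:80249199-80249498, plus strand): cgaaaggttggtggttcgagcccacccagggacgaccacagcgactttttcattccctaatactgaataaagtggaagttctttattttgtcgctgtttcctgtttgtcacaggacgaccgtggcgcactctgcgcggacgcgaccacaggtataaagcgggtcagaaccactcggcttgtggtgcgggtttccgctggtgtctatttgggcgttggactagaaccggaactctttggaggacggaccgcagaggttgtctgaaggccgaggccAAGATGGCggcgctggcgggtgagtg
Uqcr11 (chr10:80406772-80407071, minus strand): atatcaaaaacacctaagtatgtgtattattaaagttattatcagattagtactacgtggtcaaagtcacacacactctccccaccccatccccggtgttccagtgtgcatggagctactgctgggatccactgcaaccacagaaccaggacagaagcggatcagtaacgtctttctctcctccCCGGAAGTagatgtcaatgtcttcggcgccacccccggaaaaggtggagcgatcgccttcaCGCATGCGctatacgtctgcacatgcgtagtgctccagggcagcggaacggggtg

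None of these motifs was found in the Ndufa4 and Cox6b2 windows, nor was the looser element TGANNNNGC, of which TGACNNNGC is a special case. The same held for Cox7a1, which had the next largest fall in KO in DMSO and is not printed. The Ndufa9 window holds TGACCCCGC and a YY1 match, that of Ndufs7 a YY1 match, and that of Uqcr11 an NRF1 and an ETS match. Promoters were listed for 78 of the 94 members (83 promoters, since some genes have several). The NRF1 core was found in 12.05% of them, against 1.87% of all 32851 listed promoters, and the YY1 motif in 12.05%, against 2.75%. The ETS motif was in 6.02%, against 3.89%. The looser antioxidant element was in 40.96% of member promoters, against 41.34% of all, and the stricter one in 14.46%, against 12.39%. Among the 11 promoters of 10 members lower in KO in DMSO, 0 held the NRF1 core, 3 held YY1, 3 the looser and 1 the stricter antioxidant element. The YY1 matches were those of Ndufa9, Ndufc1 and Ndufs7, and the stricter element was that of Ndufa9. The printed Ndufa9 and Ndufs7 windows thus do not stand for the lower members as a whole. A match describes letters in this window and is not a shown binding site.

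RA839 changed no member past the threshold in either genotype within 4 h. In KO macrophages by limma 0 of 94 members passed, with 0 at an unadjusted p under 0.05 and 0 with a replicate block, where 0% of all genes passed. In WT macrophages 0 members passed, with 4 at an unadjusted p under 0.05 and a smallest adjusted p of 0.394 (0.162 with a replicate block, again 0 members), where 0.66% of all genes passed. Of all 18193 genes, 321 in KO and 1891 in WT had an unadjusted p under 0.05. The 15 subunits followed throughout lay between −0.16 (Atp5c1) and 0.11 (Ndufv1) in WT and between −0.05 (Cox5a) and 0.03 (Uqcrc2) in KO. The intervals of 5 of them bound what was measured. In WT the 95% interval was −0.23 to 0.13 for Ndufs1, −0.17 to 0.14 for Sdha, −0.14 to 0.35 for Uqcrc1, −0.28 to 0.09 for Cox4i1 and −0.18 to 0.10 for Atp5a1. Without WT_RA839 array 2 these 5 were at −0.01 ± 0.08, −0.01 ± 0.07, −0.03 ± 0.08, 0.00 ± 0.06 and −0.04 ± 0.06 (SE), and 0 passed. The 4 members with an unadjusted p under 0.05, named after their values were seen, were Sdhaf2 (−0.19), Ndufs4 (−0.17), Atp5g1 (−0.34) and Ndufb2 (−0.16). They were then at −0.14, −0.13, −0.17 and −0.11 (adjusted p = 0.599 to 0.753).

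The members' median with RA839 was −0.08 in WT and −0.01 in KO, beside −0.01 and 0.00 for all genes. In WT 74 of 94 members were below 0, all 17 complex V subunits among them, where 9473 of all 18193 genes were below 0. Without WT_RA839 array 2 the WT median of the members was −0.03. Members chosen after their values were seen showed the weight of that array. Atp5g2, another gene for the ring subunit of ATP synthase, read 13.49, 11.38, 13.40 and 13.47 on WT_RA839 arrays 1 to 4, and the complex III subunit Uqcrh read 13.64, 12.45, 13.62 and 13.58. The response itself, tested as WT minus KO, differed between genotypes for 0 of 94 members, with 1 at an unadjusted p under 0.05 (the dim Ndufb4) and 0 with a replicate block, where 0.115% of all genes differed and 679 of 18193 had an unadjusted p under 0.05. This same term tests whether the KO difference changes between DMSO and RA839. It was 0.12 ± 0.25 for Ndufa4 (95% interval −0.42 to 0.66), −0.05 ± 0.12 for Ndufs1 and −0.08 ± 0.34 for Cox6b2 (adjusted p = 1 each). Without WT_RA839 array 2 it was −0.05 ± 0.22 for Ndufa4, −0.02 ± 0.11 for Ndufs1 and 0.02 ± 0.36 for Cox6b2, so its sign turned for Ndufa4 and Cox6b2 (adjusted p = 1 each). Beside these members Nqo1, a target of Nrf2, rose in WT with RA839 (0.63 ± 0.12, adjusted p = 0.019).

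**Figure D3:**
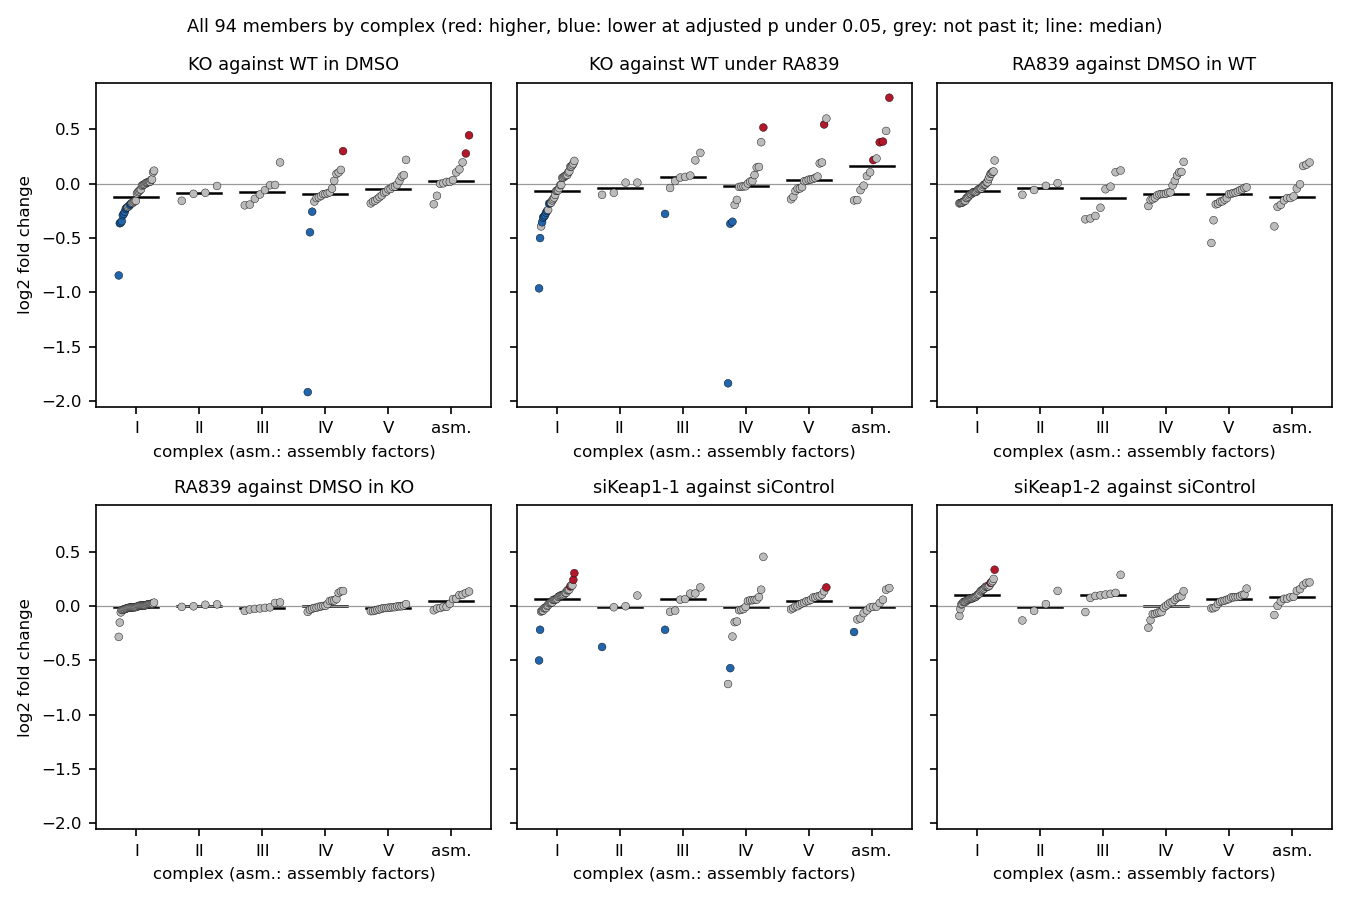
Log2 fold change (y axis) of each of the 94 members by complex, with assembly factors apart (x axis), in 6 comparisons. Red and blue points passed higher or lower at an adjusted p under 0.05, grey points did not, and lines are medians. Blue points gather in complex I in both KO comparisons, and the RA839 comparisons hold no coloured point.

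With siKeap1-1, single members of all complexes but V fell, and Ndufs8 stood out. By limma 6 of 94 members were lower and 4 higher, where 6.39% of all genes were lower and 8.67% higher, and the median of the members was 0.05. With a block for the replicate number, which these arrays share, 9 were lower and 10 higher, where 10.5% of all genes were lower and 13.6% higher. Ndufs8, an iron-sulfur subunit of the quinone-binding module of complex I, read 12.04, 12.00, 12.08 and 12.03 with siKeap1-1, against 12.51, 12.53, 12.52 and 12.58 with siControl. The groups were far apart for their spread (−0.50 ± 0.04, adjusted p = 1.77e-05), and the linear signal fell by 29.4%. All 6 probe sets of the gene were lower with siKeap1-1, from −0.44 to −0.63 (adjusted p up to 0.000472 over all probe sets). With siKeap1-2 the Ndufs8 probe set read 12.41, 12.48, 12.46 and 12.43 (−0.09 ± 0.04, adjusted p = 0.216).

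Cox7a1 read 7.68, 7.54, 7.71 and 7.61 with siKeap1-1, against 8.18, 8.07, 8.26 and 8.33 with siControl, again without overlap (−0.57 ± 0.07, adjusted p = 0.000118). Sdhb, the iron-sulfur subunit of complex II, read 12.02, 11.97, 12.05 and 11.76 with siKeap1-1, against 12.38, 12.39, 12.32 and 12.23 with siControl (−0.38 ± 0.07, adjusted p = 0.00315). These 2 calls held when each of the 12 arrays was left out in turn. Smaller falls were those of the assembly factor Ndufaf1 (−0.24 ± 0.06, adjusted p = 0.0147), Ndufb9 (−0.22 ± 0.06, adjusted p = 0.0304) and the complex III subunit Uqcr11 (−0.22 ± 0.06, adjusted p = 0.0271). The rises were Ndufb1 (0.30 ± 0.07, adjusted p = 0.015), Ndufa4 (0.24 ± 0.07, adjusted p = 0.0311), Ndufv2 of the NADH-oxidizing module (0.18 ± 0.05, adjusted p = 0.037) and Atp5l, the ATP synthase subunit g (0.17 ± 0.05, adjusted p = 0.0238). When each of the 12 arrays was left out, Ndufv2 lost its call in 8 cases, Ndufa4, Ndufb9 and Uqcr11 in 5 each, Atp5l in 4 and Ndufaf1 in 1. Cox6a2 had the lowest value of any member (−0.72 ± 0.31) and did not pass without the block (adjusted p = 0.152). It read 10.18, 9.58, 9.31 and 9.09 with siKeap1-1, against 10.96, 10.42, 9.93 and 9.72 with siControl, so each siKeap1-1 array lay below the siControl array of its number, and it passed with the block (adjusted p = 8.52e-05). Cox6b2 (0.45), Cox8a (0.15) and Cox7a2l (−0.14) likewise did not pass without the block and passed with it (adjusted p = 0.00533, 0.0254 and 0.0252). Of the same 15 subunits, a set that does not hold Ndufs8, Sdhb passed, and the other 14 lay between −0.05 and 0.17.

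With siKeap1-2, 2 of 94 members were higher and 0 lower by limma, where 6.32% of all genes were higher and 4.89% lower. At an unadjusted p under 0.05 there were 18 in either direction, beside 4478 of all 18193 genes. Ndufa4 read 12.27, 12.44, 12.44 and 12.34 with siKeap1-2, against 12.04, 12.03, 12.16 and 11.92 with siControl, with no overlap (0.33 ± 0.07, adjusted p = 0.00706). Ndufab1, the mitochondrial acyl carrier protein, was at 0.21 ± 0.06 (adjusted p = 0.03). Its call was lost in 6 of 12 fits with 1 array left out, and with the mean of all its probe sets (0.04, adjusted p = 0.809). With the replicate block 20 members were higher and 0 lower, where 11.4% of all genes were higher and 9.08% lower, and 15 of the 20 were complex I subunits. Among them were Ndufv1 (0.25, adjusted p = 0.0297 with the block), Ndufb9 (0.19, adjusted p = 0.0229) and Ndufa5 (0.18, adjusted p = 0.0199), each also lower in KO in DMSO. Uqcrc1 was at 0.29 ± 0.09 (adjusted p = 0.0504, with the block 0.0214). Without it, 0 of the 15 subunits followed throughout passed, and they lay between −0.13 (Sdhb) and this value. In all, 77 of 94 members were above 0 with siKeap1-2, 34 of them complex I subunits out of 36, where 56.9% of all genes were above 0. The median of the members was 0.08 beside 0.03 for all genes.

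The siRNAs were set against each other directly, since both comparisons above share the siControl arrays. By limma 6 of 94 members were lower with siKeap1-1 than with siKeap1-2 and 0 were higher, where 3.88% of all genes were lower and 3.57% higher. At an unadjusted p under 0.05 there were 11 in either direction, beside 3616 of all 18193 genes. With the replicate block 10 were lower and 1 higher, where 7.01% of all genes were lower and 7.64% higher. The 6 were Cox7a1 (−0.60 ± 0.07, adjusted p = 0.000204), Ndufs8 (−0.41 ± 0.04, adjusted p = 0.000195), Ndufb9 (−0.41 ± 0.06, adjusted p = 0.00191), Ndufaf3 (−0.34 ± 0.08, adjusted p = 0.0216), Uqcr11 (−0.33 ± 0.06, adjusted p = 0.00535) and Ndufaf1 (−0.31 ± 0.06, adjusted p = 0.00705). In Ndufb9 the siRNAs lay on opposite sides of siControl, at 12.55, 12.49, 12.63 and 12.36 with siKeap1-1 and 12.91, 12.97, 12.92 and 12.85 with siKeap1-2, against 12.77, 12.73, 12.74 and 12.67 with siControl. Sdhb did not pass here without the block (−0.24 ± 0.07, adjusted p = 0.0564, with the block 0.00802). Ndufa4 did not pass between the siRNAs (−0.09, adjusted p = 0.501), with a 95% interval of −0.24 to 0.05. Keap1 mRNA itself was at −0.20 between the siRNAs (adjusted p = 0.199).

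**Figure D4:**
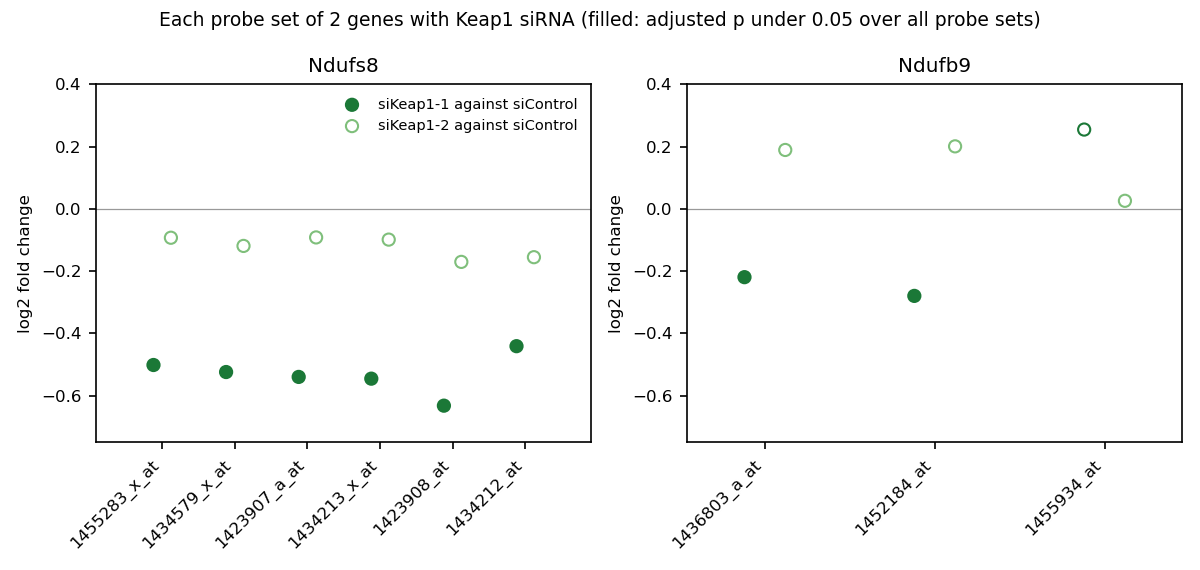
Log2 fold change (y axis) of each probe set (x axis) of Ndufs8 and Ndufb9 with siKeap1-1 and with siKeap1-2, each against siControl. Filled points passed an adjusted p under 0.05 over all probe sets. All 6 Ndufs8 probe sets were lower with siKeap1-1, and 2 of the 3 Ndufb9 probe sets were.

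The genotype and siRNA experiments share no arrays, so their values can be set side by side for the 14 members lower in KO in DMSO. With siKeap1-1, 10 of these 14 were above 0, 1 passed higher and 2 passed lower. With siKeap1-2, 12 were above 0, 1 passed higher and 0 passed lower. As shares these are 71.4% and 85.7%. Among all 2518 genes lower in KO in DMSO 70.1% were above 0 with siKeap1-1 and 68.7% with siKeap1-2, and among all 94 members 62.8% and 81.9%. Ndufa4 was the 1 of the 14 that passed higher, with either siRNA, though its siKeap1-1 call was lost in 5 of 12 fits with 1 array left out. Cox7a1 and Ndufb9 were lower both in KO and with siKeap1-1. Cox6b2 was at 0.45 ± 0.25 with siKeap1-1 and −0.07 ± 0.25 with siKeap1-2 (adjusted p = 0.275 and 0.902).

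Other genes of the respiratory system were counted in the same fits. In KO against WT in DMSO, where 11.2% of all genes were higher and 13.8% lower, 8 of 16 genes of mitochondrial DNA upkeep and its regulators were higher and 1 lower (median 0.28), with Ppargc1a at 1.29 ± 0.16 on a dim probe set (adjusted p = 4.17e-05), the polymerase subunit Polg2 at 0.63 ± 0.13 (adjusted p = 0.00286) and Gabpa at 0.46 ± 0.10 (adjusted p = 0.00309). Of 15 assembly factors outside the prefixes 5 were higher and 1 lower (median 0.23), among them Foxred1 and Timmdc1 of complex I (0.30 and 0.42). Of 12 citrate cycle genes 0 were higher and 3 lower, with Ogdh at −0.80 ± 0.10 (adjusted p = 4.61e-05). Of 9 genes of coenzyme Q synthesis 3 were higher and 2 lower, with Coq7 at −0.92 ± 0.15 (adjusted p = 0.000338) and Pdss2 at 0.58 ± 0.07 (adjusted p = 4.88e-05).

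Of 15 cytochrome c oxidase assembly genes 1 was higher and 1 lower, of 8 electron carrier and entry genes 0 passed, of 76 mitochondrial ribosome genes 6 were higher and 2 lower, of 24 import genes 4 and 2, and of 5 uncoupling genes 1 and 1, the lower one being Atpif1, the inhibitor of ATP synthase (−0.26 ± 0.06, adjusted p = 0.00849). Under RA839, where 14.6% of all genes were higher and 15.8% lower, the regulators gave 7 higher and 1 lower, the ribosome list 19 and 1 and the import list 8 and 2. With siKeap1-1 10 of the 76 ribosome genes were higher and 3 lower (8.67% and 6.39% of all genes), and with siKeap1-2 9 were higher and 0 lower (6.32% and 4.89% of all genes). The sulfide oxidoreductase Sqor was at 0.73 ± 0.06 with siKeap1-1 and 0.71 ± 0.06 with siKeap1-2, and Coq7 at 0.82 ± 0.06 and 0.63 ± 0.06 (adjusted p up to 5.89e-05). With RA839 1 gene of these lists passed, Ppargc1b in WT (−0.52 ± 0.11, adjusted p = 0.0436).

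Some cell type markers differed between the genotypes in DMSO, where 11.2% of all genes were higher in KO and 13.8% lower. In DMSO 2 of 8 macrophage markers were higher in KO (Cd14 by 1.83 and Fcgr1 by 1.98) and 1 was lower (Itgam, −1.04), and the mean of the list ran from 12.47 to 12.75 on the KO_DMSO arrays and from 12.28 to 12.49 on the WT_DMSO arrays. Of 8 markers of neutrophils and their precursors 2 were lower (S100a8, −0.97, and Ltf, −1.03), with list means of 5.54 to 6.54 in KO_DMSO and 5.85 to 6.75 in WT_DMSO. Of 4 stromal markers 2 were lower at dim levels, and 0 of the dendritic, B cell, T cell and mast cell markers passed. With siKeap1-1 4 of 8 macrophage markers were lower, 2 of 4 dendritic markers were lower and 2 of 8 neutrophil markers were higher. There 6.39% of all genes were lower and 8.67% higher. With siKeap1-2 2 macrophage markers were lower and 1 neutrophil marker was higher, where 4.89% of all genes were lower and 6.32% higher. The part of these shifts in the members' changes was not tested, and an effect of Nrf2 loss cannot be told apart from other differences between the KO and WT cultures.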

How the data were processed

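Total RNA of 28 samples was hybridised as biotin-labelled cRNA to Affymetrix mouse arrays, per the labels' protocols. The deposited values are on a log2 scale, made by the authors with RMA per the submitters' processing notes (the sources used here give no version). Array medians were 5.61 to 5.71 in the compound experiment and 5.91 to 5.96 in the siRNA experiment, so tests stayed within 1 experiment. Arrays give no read depth, and their number (4 per group) limits the precision. RMA compresses dim differences.

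Probe sets were named from GEO's platform annotation. Of 193 matching the prefixes, 8 named several genes and were not used. All 94 members matched the RefSeq table by gene identifier. Members, lists and tests were chosen with earlier results of these data known. Both experiments were fitted separately in R 4.3.3, using limma 3.58.1 (lmFit on group means, then eBayes), with two-sided p-values adjusted by Benjamini-Hochberg over 18193 genes and a threshold of 0.05. The procedure was tested on simulated data.

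Same-numbered arrays deviated together, with correlations across all genes of 0.66 to 0.70 in KO, 0.27 to 0.46 in WT and 0.12 to 0.66 in the siRNA experiment. Between genotypes they did not (−0.29 to −0.01 in DMSO). The replicate numbers are those of the sample titles, and what equal numbers have in common is not stated. A replicate block was therefore an alternative, printed where it changed a call. Other alternatives were the prior, the groups fitted, probe sets, normalization, array weights, a threshold of 0.01 and each array left out in turn. The text follows 15 subunits, isoform pairs and, per comparison and complex, up to 4 rises and 4 falls past the threshold, with up to 4 assembly factors and up to 3 genes of each other list.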

Additional observations from a re-analysis of the deposited data

Results flagged for a closer look

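In 23 of the 364 groups of 4 arrays formed by the 52 named members, 1 array lay far from the other 3, by Dixon's test at the 95% level. Such a gap arises by chance in about 5% of groups, and over all 94 members it was found in 54 of 658 groups (8.2%). WT_RA839 array 2 held 30 of the 54.

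On WT_RA839 array 2 the low values among named members were Atp5c1 at 13.0048 (13.47 to 13.49 on the other 3), Atp5l at 12.6016 (13.23 to 13.31), Cox4i1 at 13.2335 (13.59 to 13.67), Cox5b at 14.3551 (14.56 to 14.57), Cox6b1 at 13.4936 (14.01 to 14.03) and Cox7a2 at 14.3347 (14.56 to 14.57). Further low values there were Cox7a2l at 12.7825, Ndufab1 at 11.5048, Ndufaf3 at 9.0627, Ndufb1 at 7.0412, Ndufb8 at 13.1056, Ndufv2 at 11.7471 and Uqcr11 at 11.598. Cox6c at 13.6817 (13.15 to 13.23) and Uqcrb at 13.8832 (13.54 to 13.58) lay above the other 3 arrays. The 3′ to 5′ differences of Gapdh (3.74) and Actb (3.10) were also highest on this array. Their part in these values was not tested.

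On siKeap1-1 array 3, Cox6c at 13.5918 and Uqcrb at 14.0286 lay above the other arrays, as Uqcrb did at 13.4707 on KO_DMSO array 4. Ndufa5 at 12.6682 and Ndufb9 at 12.2449 were low on KO_RA839 array 2, Ndufa1 at 12.7378 and Ndufaf1 at 8.7511 on siControl array 4, and Cox8c at 5.963 on siKeap1-2 array 1.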

How the results depend on the processing

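For named members, 3879 of the values under other settings kept their side of the threshold (153 of these, which passed in neither fit, changed sign), 257 no longer passed and 39 newly passed. Another 4, which passed in at least 1 of the fits, changed sign. They came from leaving out probe sets of the types _x_at, _s_at and _a_at, which gave Ndufb2 0.26 in KO against WT in DMSO, and Sdha −0.24 (adjusted p = 0.0456), Ndufc1 0.0246 and Ndufs7 0.0636 under RA839. That setting also left 8 members lower in DMSO and 7 under RA839 (14 each otherwise), and gave 1 higher with siKeap1-1 than with siKeap1-2. It tested 76 members, and of all genes it tested 4168, 5014 and 1112 passed in either direction.

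At an adjusted p under 0.01, 0 members were higher and 6 lower in KO in DMSO, 3 and 6 under RA839, 0 and 3 with siKeap1-1, and 1 was higher with siKeap1-2. In either direction 2459, 3117, 1468 and 991 of the 18193 genes passed in these 4 comparisons. With only the groups compared in the fit, 3 were higher and 6 lower in KO under RA839, 1 was higher with siKeap1-1 and 5 with siKeap1-2. Of all genes, 4327, 2081 and 2219 passed there in either direction. With the replicate block, siKeap1-1 gave 10 higher, siKeap1-2 gave 20 higher, and siKeap1-1 against siKeap1-2 gave 1 higher and 10 lower. In the KO comparisons, whose numbers do not pair, the block gave 15 lower in DMSO and 14 under RA839, where 2686 and 3018 of all genes were lower. A trended robust prior gave 9, 12 and 1 higher in the 3 siRNA comparisons in the same order, and the brighter genes alone gave 7, 11 and 1. Of all genes, 3087, 2418 and 1583 passed with that prior in either direction, and of the brighter genes 2969, 2344 and 1666. For siKeap1-2, array weights gave 12 and centred arrays 4, where 3243 and 2077 of all genes passed in either direction.

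With each array left out in turn, KO in DMSO had 0 to 3 higher (0 without WT_DMSO array 1 or KO_DMSO array 4) and 9 to 23 lower (9 without WT_DMSO array 3 or KO_DMSO array 1, 23 without WT_RA839 array 2). In the order of these arrays, 3845, 3577, 3708, 3795 and 5670 of all genes passed in either direction. Under RA839 8 to 17 were lower (8 without KO_RA839 array 3, where 4620 of all genes passed in either direction). The median of the members ran from −0.05 to 0.0249. It was −0.0549 both without WT_RA839 array 2 and without both WT arrays numbered 2. The median difference of the response ran from −0.0982 to −0.0192. With siKeap1-1 1 to 4 were higher (1 without siControl array 4 or siKeap1-1 array 2) and 3 to 7 lower (3 without siControl array 2). In the order of these arrays, 2192, 2233 and 2018 of all genes passed in either direction. With siKeap1-2 1 to 9 were higher (9 without siKeap1-1 array 3, which enters through the shared spread). Without that array 2565 of all genes passed in either direction. The causes were not tested. With 4 arrays a group, small changes of dim members are the least certain.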
